A study of Mus musculus with 22 samples.

Results

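The nuclear genes of the mitochondrial respiratory chain were followed here across 6 groups of mouse left ventricle. They are the protein-coding genes found in both deposited tables whose symbols met a naming rule, without pseudogene names. Symbols were Sdha to Sdhd, or began with Uqc, Cox4 to Cox8, Atp5, or Nduf followed by a subunit letter and a digit. Of 30735 genes, 87 met this rule: 35 of complex I, 4 of complex II, 11 of complex III, 20 of complex IV and 17 of complex V. The tissue came from FVB mice of 3 to 5 months of 2 genotypes, wild type (WT) and transgenic for valosin-containing protein (VCP TG), an ATPase that pulls ubiquitinated proteins out of complexes and membranes. Surgery was either sham or transverse aortic constriction (TAC), in which the aorta is narrowed so that the left ventricle pumps against a raised pressure. The groups were WT sham (4 libraries), VCP TG sham (4), WT 2 weeks TAC (4), VCP TG 2 weeks TAC (3), WT 5 weeks TAC (4) and VCP TG 5 weeks TAC (3). Sham hearts were taken at 2 weeks, and no sham group at 5 weeks was analysed here. The promoter that drives the transgene and the number of founder lines are not given in the sources used here. The series asks how VCP bears on hypertrophy and dysfunction of the loaded heart, and these genes give the transcript side of its capacity to make ATP.

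The respiratory chain sits in the inner mitochondrial membrane. Complex I (NADH dehydrogenase) and complex II (succinate dehydrogenase) pass electrons to coenzyme Q, complex III passes them to cytochrome c, complex IV (cytochrome c oxidase) reduces oxygen, and complex V (ATP synthase) uses the proton gradient to make ATP. Complex II is built from nuclear genes alone, whereas the other complexes also contain subunits encoded in mitochondrial DNA. Heart muscle depends on this chain for most of its ATP, and several complex IV subunits have one gene used in heart and skeletal muscle and another used in most tissues. The rule also takes in genes that are not core parts of a complex: Uqcc1, Uqcc2 and Uqcc3 assemble complex III, Cox7a2l joins complexes into supercomplexes, and Atp5s is a coupling factor of the ATP synthase. Ndufa4 and Ndufa4l2, named for complex I, are counted here with complex IV, where the Ndufa4 protein resides.

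All values are in TPM (transcripts per 1000000), which correct for transcript length and add up to the same total in every library. The 13 mitochondrially encoded genes alone took 27.9% to 72.9% of that total, both extremes in VCP TG sham (replicates 3 and 4). Each result is therefore given on the deposited TPM and on a rescaled version, in which each library's nuclear protein-coding genes were made to add up to 1000000. The transgene could be followed through Vcp itself, which stood at 45.7 to 82.6 TPM in WT sham, 73.5 to 186 in VCP TG sham, 47.7 to 119 in WT 2 weeks TAC, 125 to 151 in VCP TG 2 weeks TAC, 47.7 to 123 in WT 5 weeks TAC and 39.1 to 118 in VCP TG 5 weeks TAC. Its rescaled level went against the label in 4 libraries: those labelled WT 2 weeks TAC replicate 1 (345), WT 5 weeks TAC replicates 2 and 3 (334 and 354) and VCP TG 5 weeks TAC replicate 3 (114), where WT sham stood at 162 to 204. VCP TG sham replicate 1, at 215, was above all WT sham libraries but nearer to them than to the other VCP TG sham libraries (at least 312), and it was left out together with these 4 in an alternative without the 5 libraries of doubtful Vcp level. A further check on tissue found 4 libraries rich in atrial transcripts (VCP TG sham replicates 3 and 4, VCP TG 2 weeks TAC replicate 2, and the one labelled WT 2 weeks TAC replicate 1). The 9 genes used as ventricular myocyte markers were Myl2, Myl3, Myh6, Tnnt2, Tnni3, Actc1, Mybpc3, Pln and Ryr2. Together they stood at 17275 to 37279.7 TPM in all 22 libraries. Not all of them are particular to the ventricle, so this sum does not tell ventricular from atrial muscle.

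The promoters of 6 members are shown because these genes carry the results below: the muscle isoform genes Cox7a1 and Cox8b beside their partners Cox7a2 and Cox8a, and Ndufa12 and Uqcrc1, which were among the genes furthest apart between WT sham and WT TAC. Each window runs from 250 bases before to 50 bases after the start site in RefSeq (GRCm38.p6), 5′ to 3′ on the strand of the gene, and capitals mark a match to an NRF1, ETS, YY1, ERR, MEF2 or TATA motif, as spelled out in the next paragraph, but not CG or E-box matches. The Ndufa12 window lies inside the gene as GENCODE annotates it, whose start is further upstream, so bases before that start are not shown.
Cox7a1 (chr7:30183921-30184220, + strand): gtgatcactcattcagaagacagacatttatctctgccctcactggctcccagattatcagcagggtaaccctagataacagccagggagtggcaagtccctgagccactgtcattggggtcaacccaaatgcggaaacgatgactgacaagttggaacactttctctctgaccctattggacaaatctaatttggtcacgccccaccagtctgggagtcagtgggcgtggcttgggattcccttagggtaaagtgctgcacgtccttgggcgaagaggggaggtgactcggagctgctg
Cox7a2 (chr9:79759804-79760103, - strand): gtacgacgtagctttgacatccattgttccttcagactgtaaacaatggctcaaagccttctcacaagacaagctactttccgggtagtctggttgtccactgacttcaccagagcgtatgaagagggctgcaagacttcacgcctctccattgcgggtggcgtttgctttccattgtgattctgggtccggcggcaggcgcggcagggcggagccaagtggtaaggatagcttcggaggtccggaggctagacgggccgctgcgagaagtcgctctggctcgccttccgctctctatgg
Cox8b (chr7:140900397-140900696, - strand): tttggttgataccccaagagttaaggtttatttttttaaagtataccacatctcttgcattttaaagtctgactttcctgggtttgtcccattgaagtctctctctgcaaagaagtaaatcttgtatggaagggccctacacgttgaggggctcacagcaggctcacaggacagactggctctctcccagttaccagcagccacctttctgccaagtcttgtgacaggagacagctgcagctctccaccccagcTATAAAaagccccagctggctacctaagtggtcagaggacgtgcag
Cox8a (chr19:7217567-7217866, - strand): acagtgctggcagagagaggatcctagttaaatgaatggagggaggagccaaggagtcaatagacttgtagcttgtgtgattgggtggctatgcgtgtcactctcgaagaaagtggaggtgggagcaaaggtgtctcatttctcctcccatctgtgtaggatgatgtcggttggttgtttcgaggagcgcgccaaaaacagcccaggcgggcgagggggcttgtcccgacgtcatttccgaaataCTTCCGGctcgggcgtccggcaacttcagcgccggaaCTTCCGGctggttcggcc
Ndufa12 (chr10:94198785-94199084, + strand): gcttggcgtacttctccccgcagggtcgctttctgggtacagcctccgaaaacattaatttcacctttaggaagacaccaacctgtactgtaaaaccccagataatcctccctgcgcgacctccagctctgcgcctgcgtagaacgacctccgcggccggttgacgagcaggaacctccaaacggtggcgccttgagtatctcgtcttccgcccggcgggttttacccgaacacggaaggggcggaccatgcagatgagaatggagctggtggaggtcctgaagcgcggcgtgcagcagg
Uqcrc1 (chr9:108936398-108936697, + strand): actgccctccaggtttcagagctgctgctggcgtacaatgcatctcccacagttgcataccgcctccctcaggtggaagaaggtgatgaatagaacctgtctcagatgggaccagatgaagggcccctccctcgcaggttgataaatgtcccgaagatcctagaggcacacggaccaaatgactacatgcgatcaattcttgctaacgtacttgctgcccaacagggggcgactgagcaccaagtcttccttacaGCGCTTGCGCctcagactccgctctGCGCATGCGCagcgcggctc

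The windows of the muscle isoform genes held few CG dinucleotides, 7 in Cox7a1 and 2 in Cox8b, against 20 in Cox7a2 and 19 in Cox8a. Cox8b alone of the 6 held a TATAAA sequence, which lies at the start site. Uqcrc1 held 2 matches to GCGCA, any base, GCGC, the binding sequence of NRF1, a factor known for driving respiratory chain genes, and Cox8a held 2 matches to CCGGAAG, the binding sequence of ETS factors such as GABP. RefSeq promoters were found for 71 of the 87 members. At least 10 CG were present in 91.5% of those 71, compared with 43.5% of all 32851 promoters in the table. On either strand, the NRF1 letters were found in 23.9% of member promoters and 4.60% of all, the ETS letters in 21.1% and 8.86%, AAGATGGC (YY1) in 14.1% and 2.75%, and TCAAGGTCA (estrogen-related receptors, ERR) in 2.82% and 0.423%. TATAAA was found in 9.86% of member promoters and 13.6% of all, CTA and TAG with 4 bases between (MEF2) in 1.41% and 3.69%, and CANNTG (E-box) in 69.0% and 72.3%. The NRF1 and ETS letters themselves contain CG, so these counts overlap. A match describes the letters of the window and does not show that a factor binds there.

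Levels differed widely between members. Averaged over the 22 libraries, 81 of 87 stood at 10 TPM or more, 70 at 100 or more and 8 at 1000 or more, with a median of 289 TPM. Cox7a1, the muscle isoform of a small complex IV subunit, was the most abundant member, at 2289 TPM. In complex I the means ran from Ndufa11 (27.0 TPM), an accessory subunit of the membrane arm, to Ndufv3 (821 TPM), an accessory subunit of the NADH-oxidizing module. In complex II they ran from the membrane anchor Sdhd (109.6 TPM) to the iron-sulfur subunit Sdhb (395 TPM). Complex III ranged from the assembly factor Uqcc3 (18.5 TPM) to Uqcrb (1157 TPM), a subunit at the quinone-binding side. Complex V ranged from Atp5s (7.26 TPM) to Atp5b (2094 TPM), the catalytic beta subunit. The remaining members under 10 TPM were all of complex IV: Ndufa4l2, Cox4i2, Cox6b2, Cox7b2 and Cox8c, of which Cox7b2 and Cox8c were too low to be tested, leaving 85 members in every test.

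Summed by complex, the nuclear subunits of complexes I, IV and V stood above those of III, and those of III above II, in all 22 libraries. In WT sham the sums were 7262 to 12617 TPM for complex I, 778 to 1505 for II, 3105 to 5092 for III, 8729.7 to 14939 for IV and 6911 to 14599 for V. WT 2 weeks TAC libraries lay at 14176 to 17839 TPM for complex IV, overlapping WT sham in the upper part of its range, and VCP TG 2 weeks TAC libraries lay below all 4 of them at 10492 to 12834. Complex I overlapped between these groups, with 9052 to 12229 TPM in WT and 8789 to 10280.4 in VCP TG. At 5 weeks the complex IV sum was 7259.8 to 13651 TPM in WT and 6556 to 7954 in VCP TG, which again overlapped. VCP TG sham was the widest group for complexes I to IV, for example 8101 to 16628 TPM for complex IV.

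**Figure D1:**
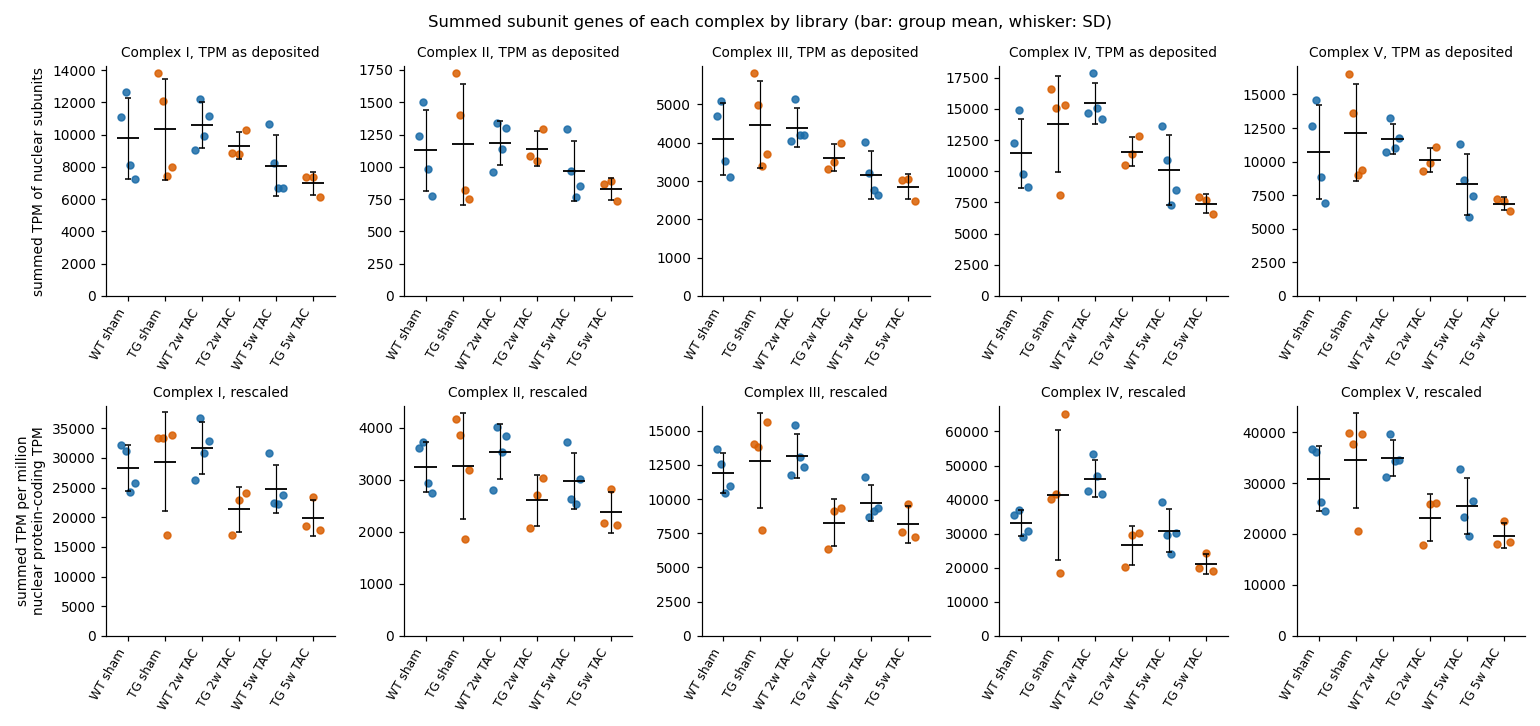
Summed TPM of the nuclear genes of complexes I to V in each library, as deposited (top row) and rescaled to nuclear protein-coding TPM (bottom row); points are libraries (blue WT, orange VCP TG, labelled TG), bars group means and whiskers SD. The 3 VCP TG libraries at 2 weeks TAC lie below the 4 WT libraries at 2 weeks TAC for complex IV in the top row (10492 to 12834 against 14176 to 17839 TPM), and VCP TG sham spreads widely.

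As a share of all nuclear protein-coding TPM, the 87 genes together took 9.30 to 12.2% in WT sham, 6.56 to 15.7% in VCP TG sham, 11.4 to 14.9% in WT 2 weeks TAC and 6.33 to 9.27% in VCP TG 2 weeks TAC. After 5 weeks the share was 7.75 to 11.8% in WT and 6.46 to 8.27% in VCP TG. The 2 genotypes were thus separate at 2 weeks TAC and overlapped at 5 weeks. The overlap at 5 weeks rested on 1 library with Vcp against its label, the one called WT replicate 3 at 5 weeks (7.75%), and the other 3 WT libraries began at 8.68%. The remaining libraries with Vcp against the label lay on the side of their labelled groups. They were WT replicate 2 (8.68%) and VCP TG replicate 3 (6.46%) at 5 weeks, and WT replicate 1 (11.4%) at 2 weeks TAC. In bulk tissue, fewer myocytes and less of these transcripts per myocyte cannot be told apart. Set against the 9 ventricular myocyte markers, the summed members gave a ratio of 1.13 to 1.43 in WT sham, 1.68 to 1.87 in WT 2 weeks TAC and 1.33 to 1.47 in VCP TG 2 weeks TAC. WT 2 weeks TAC libraries therefore lay above both of these groups on this ratio, whereas their share of nuclear TPM overlapped WT sham. VCP TG sham spanned 1.12 to 2.15 and so covered the range of all 3. Between WT sham and WT 2 weeks TAC the mean marker sum was lower (28744 and 24200 TPM). The mean member sum was higher (37180 and 43279 TPM), and both of these raise the ratio. Whether the markers themselves differed within myocytes was not tested, so the ratio is not a level per myocyte. At 5 weeks the ratio was 1.00 to 1.49 in WT and 1.04 to 1.09 in VCP TG. Against the mitochondrially encoded genes, the nuclear members stood at 6.79 to 8.76% in WT and 6.71 to 8.23% in VCP TG at 2 weeks TAC, which overlapped.

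**Figure D2:**
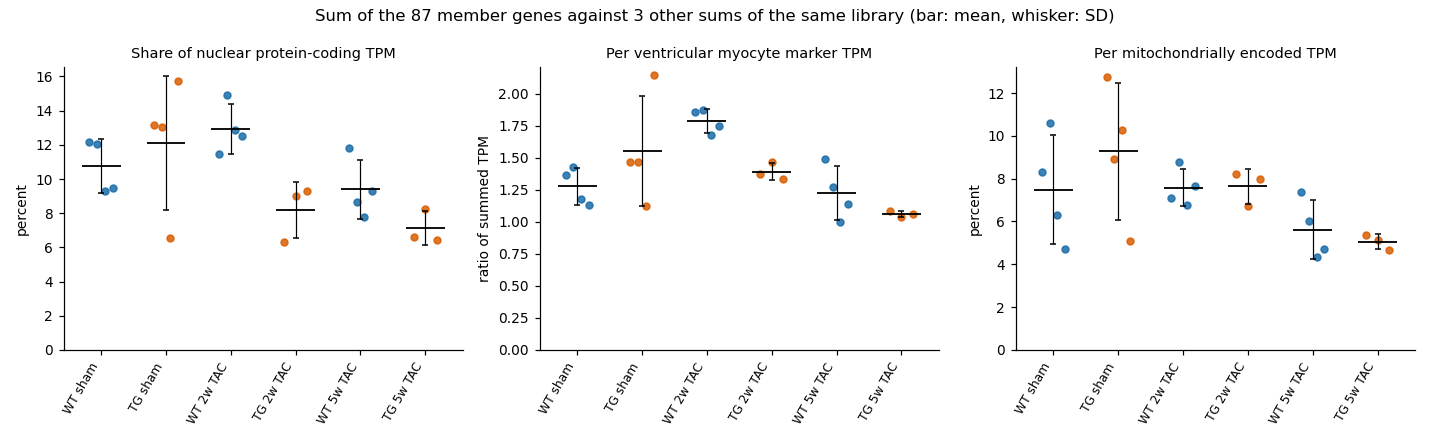
Sum of the 87 genes in each library as a percentage of nuclear protein-coding TPM (left), as a ratio to the summed TPM of 9 ventricular myocyte markers (middle) and as a percentage of mitochondrially encoded TPM (right); points are libraries, bars means and whiskers SD. On the middle axis the 4 WT libraries at 2 weeks TAC (1.68 to 1.87) lie above WT sham (1.13 to 1.43) and VCP TG 2 weeks TAC (1.33 to 1.47), while on the right axis these groups overlap.

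Where a subunit has a muscle gene and a general gene, the muscle gene supplied most of the transcripts in every library. Cox6a2 made up 85.6% to 94.1% of Cox6a1 plus Cox6a2, Cox7a1 81.3% to 92.8% of Cox7a1 plus Cox7a2, and Cox8b 83.3% to 94.8% of Cox8a plus Cox8b. Cox8c, a further gene for that subunit known from testis, was at 0 in both sham groups and at most 0.772 TPM elsewhere. Cox6b2, the testis partner of Cox6b1, took at most 2.48% of that pair. The c-ring of the ATP synthase is encoded by 3 genes with the same mature protein, and Atp5g1 supplied 56.3% to 70.4% of it, Atp5g3 19.4% to 34.3% and Atp5g2 6.64% to 11.98%. Ndufa4l2, a hypoxia-responsive relative of Ndufa4, took 0.965% to 2.35% of the pair.

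These proportions did not separate the genotypes at 2 weeks TAC for Cox6a2 or Cox8b: Cox6a2 took 85.6 to 91.6% in WT and 87.9 to 89.9% in VCP TG. Among the c-ring genes Atp5g2 took a larger share in VCP TG, 6.85 to 9.42% in WT and 10.3 to 11.98% in VCP TG, and Atp5g3 a smaller one, 23.8 to 30.8% and 19.4 to 23.1%. Under sham surgery the Atp5g2 share was also larger in VCP TG without overlap, at 6.64 to 7.95% in WT and 8.08 to 11.3% in VCP TG. At 5 weeks TAC it overlapped, at 7.98 to 9.94% in WT and 9.41 to 10.8% in VCP TG. The remaining separations were in Cox4i2, the isoform of the Cox4 subunit known from lung and from low oxygen. Its share of the Cox4 pair was 0.652 to 1.07% in WT 5 weeks TAC and 1.38 to 1.49% in VCP TG 5 weeks TAC. Cox4i2 itself stood at 7.28, 5.48, 3.65 and 2.77 TPM in WT and 7.76, 7.47 and 6.33 TPM in VCP TG at 5 weeks, so the levels overlapped although the shares did not. At 2 weeks TAC the Cox4i2 share was 0.634 to 0.867% in WT and 0.868 to 1.25% in VCP TG, so that the groups met without overlapping. These separations were picked out after the values were seen, among 9 isoform shares, and were not tested.

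The genes of isoform pairs did not differ in the same way in every pair, and none of the following passed a test with all groups together. Between WT 2 weeks TAC and WT sham the log2 difference was 0.39 ± 0.26 for Cox6a1 and -0.01 ± 0.26 for Cox6a2, 0.28 ± 0.32 for Cox8a and 0.16 ± 0.27 for Cox8b, and -0.19 ± 0.32 for Cox4i1 and -0.51 ± 0.38 for Cox4i2. Between VCP TG and WT at 2 weeks TAC it was -0.37 ± 0.28 for Cox6a1 and -0.36 ± 0.28 for Cox6a2, -0.26 ± 0.34 for Cox8a, -0.47 ± 0.35 for Cox7a1 and -0.26 ± 0.39 for Cox7a2. The c-ring genes had -0.24 ± 0.41 (Atp5g1) and 0.15 ± 0.37 (Atp5g2) in that comparison, and Ndufa4 and Ndufa4l2 had -0.21 ± 0.27 and -0.09 ± 0.28. Both general and muscle genes of subunits 6a, 7a and 8 were thus on the lower side in VCP TG hearts.

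The first comparison asked what pressure overload did in WT hearts. With all 4 groups of the 2-week table fitted together (limma on log2 TPM + 1, Benjamini-Hochberg over 15540 genes, threshold 0.05), no member was called, nor was any gene (0% of all genes tested), and 9 of 85 members had an unadjusted p under 0.05. With the 8 WT libraries fitted alone, limma called 3 members. Ndufa12 and Cox7a1 rose and Uqcrc1 fell, against 0.722% of all genes called higher and 6.31% called lower in that fit. Of 85 members, 60 had a log2 difference above 0 and 25 below, with a median of 0.13 where all genes tested had -0.13. On rescaled values these medians were 0.15 and -0.13, and 62 members were above 0.

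Uqcrc1 (ENSMUSG00000025651, chr9:108936633-108949623, GRCm38) encodes the core 1 protein of complex III. WT sham replicates 1 to 4 stood at 470.0, 455, 421 and 334 TPM, and WT 2 weeks TAC replicates 1 to 4 at 142, 218, 182 and 231 TPM. No TAC library reached the lowest sham library. The log2 difference was -1.13 ± 0.20 (SE; limma adjusted p = 0.0176 in the WT libraries alone, 0.327 with all 4 groups). VCP TG sham, by contrast, spread from 87.8 TPM in replicate 4 to 468 in replicate 1, and VCP TG 2 weeks TAC stood at 263, 217 and 338 TPM.

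Cox7a1 (ENSMUSG00000074218, chr7:30184144-30186078) encodes the muscle isoform of complex IV subunit 7a. Its level was 1614, 2188, 1722 and 1381 TPM with sham surgery and 3401, 4094, 2985 and 2717 TPM after TAC, again with no overlap. The difference was 0.94 ± 0.20 on the log2 scale (limma adjusted p = 0.0273 in the WT libraries alone, 0.346 with all 4 groups). Its general partner Cox7a2 was higher as well, at 371, 413, 179 and 112 TPM in sham and 549, 609.7, 453 and 544 in TAC. That difference, 1.18 ± 0.37, was larger but did not pass (limma adjusted p = 0.0744 in the WT libraries alone), and its sham libraries differed more among themselves. With both partners higher, the Cox7a1 share of the pair was 81.3 to 92.5% with sham surgery and 83.3 to 87.04% after TAC.

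Ndufa12 (ENSMUSG00000020022, chr10:94198720-94221443) encodes an accessory subunit at the NADH-oxidizing end of complex I. It stood at 239, 323, 150.0 and 136 TPM with sham surgery and 396, 465, 436 and 455 TPM after TAC, with a log2 difference of 1.13 ± 0.26 (limma adjusted p = 0.0316 in the WT libraries alone, 0.272 with all 4 groups). The WT TAC libraries of Ndufa12 were close together, and the sham libraries were not. Ndufa5, an accessory subunit of the peripheral arm of complex I, was on the other side, at 601, 426, 469.9 and 501 TPM in sham and 320.1, 374, 309 and 364 in TAC (-0.54 ± 0.17, limma adjusted p = 0.0801 in the WT libraries alone).

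**Figure D3:**
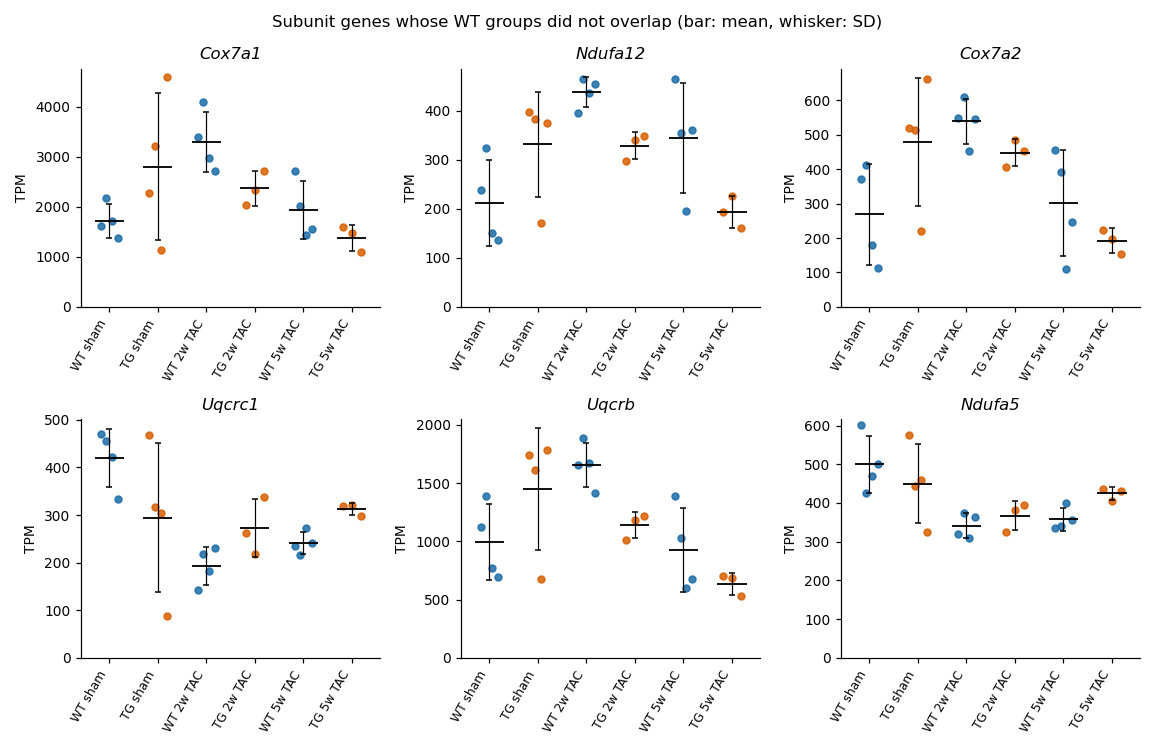
TPM of the 6 members whose WT sham and WT 2 weeks TAC libraries did not overlap, in all 22 libraries (blue WT, orange VCP TG, labelled TG); points are libraries, bars group means and whiskers SD. Uqcrc1 and Ndufa5 are lower in all 4 WT TAC libraries at 2 weeks than in all 4 WT sham libraries, and the other 4 genes are higher, such as Uqcrb at 1414 to 1885 TPM.

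By complex, the median log2 difference between WT TAC and WT sham was 0.09 for complex I, 0.14 for II, 0.01 for III, 0.29 for IV and 0.29 for V, each above the -0.13 of all genes. Complex III was the most divided, with Uqcrb at 1122, 1392, 769 and 696 TPM in sham and 1654, 1885, 1673 and 1414 in TAC (0.78 ± 0.30) at one end and Uqcrc1 at the other. In complex II, which has no mitochondrially encoded subunit, the membrane anchor Sdhd (0.67 ± 0.33) and the flavoprotein Sdha (0.49 ± 0.28) had positive differences and the other pair of subunits negative ones, none passing. In complex V the smallest unadjusted p belonged to Atp5c1 (0.65 ± 0.33), the gamma subunit of the rotor, and Atp5mpl (0.62 ± 0.31), a small membrane subunit, with limma adjusted p of 0.452 and 0.455. The groups did not overlap for 4 members that were higher with TAC (Cox7a1, Cox7a2, Ndufa12, Uqcrb), against 2.48% of all genes, and for 2 that were lower (Ndufa5, Uqcrc1), against 13.7%. On rescaled values 12 members were higher without overlap, against 4.07%, and 2 were lower (Cox4i2, Uqcrc1), against 16%. The 12 were 4 genes of complex I, 6 of complex IV and 1 each of complexes III and V. Without WT sham replicate 2 the count on deposited TPM was 19 in place of 4. A count without overlap can only stay or rise when a library is left out, and the share of all genes was not computed there.

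The 3 calls in the WT libraries depended on single libraries, and with all groups pooled 2 members were called without VCP TG sham replicate 4. Leaving out replicate 3 of either group gave 0 calls, and leaving out TAC replicate 1, 2 or 4 gave 1 each. Leaving out sham replicate 1 gave 2 calls, sham replicate 4 gave 4, and sham replicate 2 gave 7. The shares of all genes called in these smaller fits are not given here. Markers of other cells moved with this comparison: endothelial markers summed to 467 to 684 TPM with sham surgery and 356 to 430.3 after TAC, with 2 of 7 called lower in the WT libraries. Macrophage markers summed to 78.3 to 129 and 99.9 to 276 TPM (0 of 7 called), and 2 of 9 ventricular markers were called lower, with sums of 23645 to 34041 and 21228 to 26567 TPM. Atrial markers summed to 41.4 to 161 TPM in sham and 52.0 to 9640.0 with TAC, the high end being the library labelled WT 2 weeks TAC replicate 1. The part of these other cells in the result was not tested.

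The second comparison asked how VCP TG hearts differed from WT hearts after the same 2 weeks of TAC. No member was called (limma with all 4 groups, 0.0901% of all genes called), and none had an unadjusted p under 0.05. With the 7 TAC libraries fitted alone, 0 members were called and 21 had an unadjusted p under 0.05 (smallest limma adjusted p = 0.0670). The direction was shared: 68 of 85 members had a log2 difference below 0, with a median of -0.21 where all genes tested had 0.16. On rescaled values the difference was wider, with 84 of 85 below 0, a median of -0.60 against -0.17 for all genes, and 41 members at an unadjusted p under 0.05, still with 0 called. Under quantile normalization, which gives all libraries the same distribution, the member median was -0.26.

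Without overlap, 18 members were lower in the 3 VCP TG libraries than in the 4 WT libraries on deposited TPM, against 2.78% of all genes, and 1 was higher (Ndufv1, the subunit that binds NADH and the flavin of complex I), against 19%. The 18 were 7 genes of complex V, 6 of complex IV, 3 of complex I and 2 of complex III. On rescaled values 58 of 85 were lower without overlap, against 17.7%, and 0 were higher, against 5.88%. They comprised 23 of 35 genes of complex I, 2 of 4 of complex II, 7 of 11 of complex III, 13 of 18 of complex IV and 13 of 17 of complex V. Leaving out 1 library, the 18 ranged from 18 to 37, the highest without VCP TG 2 weeks TAC replicate 3, and without the library labelled WT 2 weeks TAC replicate 1 the count was 29. Leaving out a library can only keep or raise such a count, and the share of all genes was not computed for these smaller sets.

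Cox7b, a small membrane subunit of complex IV, shows the pattern on deposited values, with 411, 468, 361 and 412 TPM in WT and 265, 297 and 306 TPM in VCP TG. All 3 VCP TG libraries lay below all 4 WT libraries, and the log2 difference was -0.51 ± 0.28 (limma adjusted p = 0.650). Cox8b, the muscle isoform of subunit 8, stood at 1490.4, 2069, 1960.3 and 1615 TPM in WT and 1152, 1175 and 1292 in VCP TG (-0.55 ± 0.29, limma adjusted p = 0.621). Atp5g3, which encodes the c-ring subunit, had the largest deficit of any member, with 385, 583, 458 and 463 TPM in WT and 273, 262 and 366 in VCP TG (-0.65 ± 0.35). Its 2 partner genes did not follow to the same extent, as the c-ring shares above show. Atp5s, the least abundant gene of complex V, was at 8.95, 10.2, 10.8 and 11.4 TPM in WT and 5.15, 7.47 and 6.97 in VCP TG and had the smallest p of any member (limma adjusted p = 0.548).

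In complex I, Ndufb6, an accessory subunit of the membrane arm, was at 52.0, 73.5, 59.3 and 56.5 TPM in WT and 37.0, 42.3 and 45.1 in VCP TG (-0.52 ± 0.30), and Ndufa12 at 297, 339.9 and 348 TPM in VCP TG, below each of its WT TAC values given above (-0.42 ± 0.32). In complex III, Uqcrb was at 1012, 1179.7 and 1221 TPM in VCP TG, also below its WT TAC values (-0.54 ± 0.32), whereas Uqcrc1 pointed the other way (0.50 ± 0.39). Uqcrc1 was the member with the highest difference on either scale and the only member above 0 on rescaled values (0.10 ± 0.30). In complex II the differences were -0.38 ± 0.30 for Sdha and 0.37 ± 0.33 for the anchor Sdhc, and on rescaled values -0.78 ± 0.29 and -0.02 ± 0.24, so the sign of Sdhc depended on the scale. By complex the medians were -0.19 (I), -0.04 (II), -0.20 (III), -0.26 (IV) and -0.24 (V) on deposited TPM, and -0.59, -0.44, -0.59, -0.66 and -0.64 on rescaled values.

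Library make-up also differed between these 2 groups. The mitochondrially encoded share of TPM was 55.5 to 60.9% for WT and 40.2 to 51.6% for VCP TG. The number of genes at 1 TPM or more was 12868 to 13414 and 13891 to 16813, and the mean over 1344 olfactory and vomeronasal receptor genes, which heart muscle is not known to use, was 0.107 to 0.1998 and 0.311 to 0.841 TPM. The VCP TG libraries were thus all higher in receptor transcripts and all lower in mitochondrially encoded ones. None of 7 fibroblast, 7 endothelial or 7 macrophage markers was called between the groups, and their sums overlapped. The part of library make-up in the lower member levels was not tested.

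**Figure D4:**
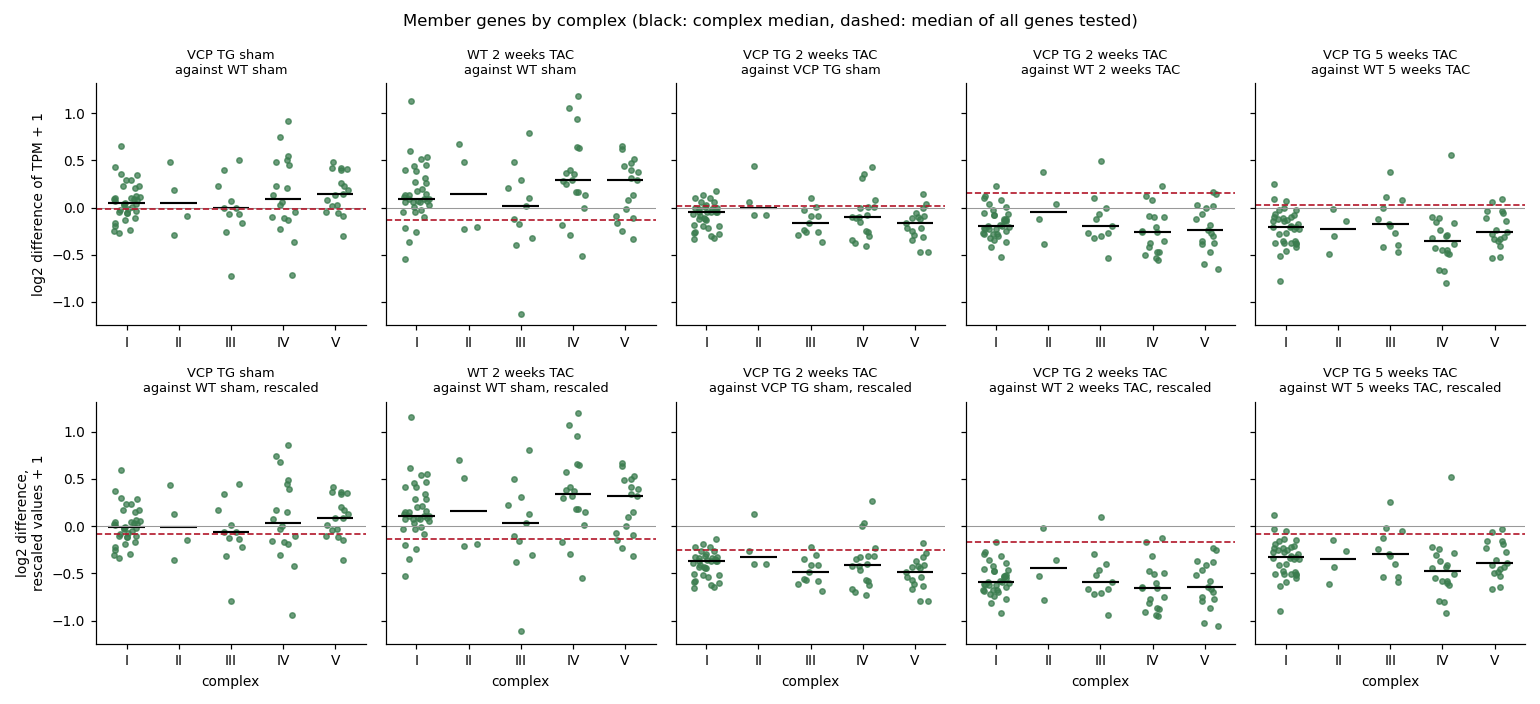
Log2 differences of the 85 tested members by complex in 5 comparisons, on deposited TPM (top) and rescaled values (bottom); each point is a gene, black lines are complex medians, and the dashed line is the median of all genes tested. At 2 weeks TAC the members of VCP TG against WT lie mostly below both 0 and the dashed line (median -0.21 against 0.16, and -0.60 against -0.17 rescaled), while WT TAC against WT sham lies above it.

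Under sham surgery no member separated the genotypes. Between VCP TG sham and WT sham 0 members were called (limma, 0% of all genes called), 2 had an unadjusted p under 0.05 (Cox7a2 at 0.91 ± 0.37 and Ndufa12 at 0.66 ± 0.30), and 0 were without overlap, against 1.04% of all genes on deposited TPM and 3.1% on rescaled values. The member median was 0.07 against -0.01 for all genes, 0.01 on rescaled values and -0.02 under quantile normalization, so its sign depended on the scale. Red cell markers (5 genes, hemoglobins and Alas2) summed to 23.2 to 104 TPM in WT sham and 106 to 2178 in VCP TG sham without overlap (median log2 difference 2.09, 4 of 5 with an unadjusted p under 0.05), endothelial markers to 467 to 684 and 238 to 551 (3 of 7 with an unadjusted p under 0.05), with 0 called in either list, and their part was not tested. Cox7a2 stood at 518, 514, 221 and 662 TPM in VCP TG sham replicates 1 to 4. The low library differed between genes, replicate 4 for some and replicate 3 for others: Uqcrc1 was at 468, 317, 304 and 87.8 TPM and Cox7a1 at 2284, 3220.3, 1140.0 and 4593 TPM in the 4 libraries. Other genes with the smallest p in their complex were Cox5a (0.74 ± 0.39), a matrix-side subunit of complex IV, Uqcrc1 (-0.73 ± 0.37), Uqcrb (0.50 ± 0.30), Atp5f1 (0.42 ± 0.27), the b subunit of the ATP synthase stalk, and Atp5mpl (0.48 ± 0.31), all with a limma adjusted p of 1.

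Within VCP TG, the TAC response was small on deposited TPM. No member was called (limma, 0.772% of all genes called) or had an unadjusted p under 0.05, 65 of 85 were below 0, and the median was -0.09 against 0.02 for all genes. No member was without overlap, against 4.02% of all genes. On rescaled values the median was -0.41 against -0.25, 19 members had an unadjusted p under 0.05 with 0 called, and 6 were lower without overlap (Atp5b, Atp5e, Ndufa1, Ndufa13, Ndufa5 and Uqcrq), against 9.51% of all genes lower. The member furthest below 0 on deposited TPM was Atp5k, the e subunit of the ATP synthase that helps its dimers form, at 925, 694, 438 and 835 TPM in VCP TG sham and 445, 543 and 523 in VCP TG 2 weeks TAC (-0.47 ± 0.28, limma adjusted p = 0.851). The 3 TAC libraries of Atp5k lay within the spread of the sham libraries. The sign of the median turned with single sham libraries: it was 0.08 without VCP TG sham replicate 1 and 0.03 without replicate 2, against -0.25 without replicate 3 and -0.24 without replicate 4. All genes had medians of 0.09, 0.04, 0.16 and -0.21 in these fits. Without the 4 libraries rich in atrial transcripts the members had -0.49 and all genes -0.11, with 0 members called. Red cell markers summed to 106 to 2178 TPM in VCP TG sham and 84.6 to 90.0 after TAC, with 5 of 5 below 0 and 0 called, and their part was not tested.

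Whether the response to TAC differed between the genotypes was tested as an interaction at 2 weeks. No member passed (limma, 0.00644% of all genes called, smallest member adjusted p = 0.872), and 8 had an unadjusted p under 0.05: Ndufa12, Uqcrb, Uqcrc1, Cox6c, Cox7a1, Cox7a2, Cox7c and Atp5k. Of these 8, 7 had a lower response in VCP TG, such as Cox7c (-1.05 ± 0.42), Ndufa12 (-1.07 ± 0.44) and Uqcrb (-1.04 ± 0.44). Uqcrc1 had a higher one (1.22 ± 0.54). Cox7c, a small membrane subunit of complex IV, shows where this difference lies: its WT libraries stood at 1154, 1361, 795 and 689 TPM with sham surgery and 1587, 1726, 1369.9 and 1361 after TAC, and its VCP TG libraries at 1747, 1526, 755 and 1749 and 969, 1046 and 1092. The WT libraries were mostly higher with TAC, and the VCP TG TAC libraries lay between the low sham library and the other sham libraries. Over all members the median interaction was -0.25 against 0.22 for all genes, and -0.59 against -0.02 on rescaled values.

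At 5 weeks of TAC, again without a sham group, VCP TG and WT hearts were compared within their own table. No member was called (limma, 0.00715% of all genes called) and 2 had an unadjusted p under 0.05, Ndufa12 and Cox7c. Of 85 members, 76 were below 0 in VCP TG, with a median of -0.23 against 0.03 for all genes, and -0.35 against -0.08 on rescaled values. On deposited TPM 1 member, Cox7c, was lower without overlap, against 1.74% of all genes, and Ndufa5 and Uqcrc1 were higher, against 3.4%. On rescaled values 10 were lower, against 5.43%, and 0 higher, against 1.42%. Without the 3 libraries of doubtful Vcp level in this comparison (those labelled WT replicates 2 and 3 and VCP TG replicate 3), 22 members in place of 1 were lower without overlap on deposited TPM, with 2 libraries left in each group. Groups of 2 separate more easily than the full groups, so the 1.74% does not apply to them. Their share of all genes was not computed, and the 22 cannot be read as a stronger difference. The 10 on rescaled values were Atp5h, Cox6b1, Cox7a1, Cox7b, Cox7c, Cox8b, Ndufb3, Ndufb5, Ndufv2 and Uqcc3, so complex IV supplied 5 of them. Without the library labelled WT 5 weeks TAC replicate 3 the count on deposited TPM was 19 in place of 1, and 6, 5 or 4 without WT 5 weeks TAC replicate 4 or VCP TG 5 weeks TAC replicate 2 or 1. With a library left out such counts can only stay or rise, and no share of all genes was computed beside them.

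Other features moved with this comparison. Macrophage markers summed to 91.0 to 128 TPM in WT and 65.9 to 84.97 in VCP TG without overlap, with 7 of 7 below 0. Of 7 fibroblast markers 6 were below 0 (median -0.59), with sums of 277 to 735 and 195 to 490.4 TPM, and 2 of each list had an unadjusted p under 0.05 with 0 called. The mitochondrially encoded share of TPM was 53.0 to 55.6% for WT and 47.6 to 50.8% for VCP TG. The part of these in the member differences was not tested.

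Cox7c stood at 1213, 884, 479 and 536 TPM in WT 5 weeks TAC and 472, 438 and 349 in VCP TG 5 weeks TAC (-0.80 ± 0.33, limma adjusted p = 0.904). The WT libraries fall into a higher and a lower pair, and the VCP TG libraries lie just under the lower pair. Ndufa12 was at 466, 355, 196 and 362 TPM in WT and 193, 227 and 162 in VCP TG (-0.77 ± 0.30), where the library labelled WT replicate 3, whose Vcp goes against the label, lay among the VCP TG libraries. WT replicate 2 (355 TPM) and VCP TG replicate 3 (162 TPM), whose Vcp also goes against the label, lay with their labelled groups. Cox6b1, the subunit that joins the monomers of the complex IV dimer, was at 844, 667, 420.4 and 362 and 358, 367 and 297 TPM (-0.67 ± 0.31), with WT replicate 4 inside the VCP TG range. Uqcrc1 was again on the other side, at 234, 217, 273 and 242 TPM in WT and 319, 322 and 298 in VCP TG (0.38 ± 0.20, limma adjusted p = 0.904). Ndufa5 shared that direction, with 336, 339.5, 401 and 357 TPM in WT and 437, 405 and 432 in VCP TG. By complex, the medians were -0.21 (I), -0.22 (II), -0.17 (III), -0.35 (IV) and -0.26 (V). In the order I to V, the genes with the smallest p not yet named were Ndufb9 (-0.51 ± 0.29), Sdhd (-0.49 ± 0.30), Uqcc3 (-0.39 ± 0.21), and Atp5k (-0.52 ± 0.26) with Atp5c1 (-0.54 ± 0.33), each with a limma adjusted p of 0.904.

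The genotype difference at 5 weeks was set against that at 2 weeks. No member was called (limma over all 6 groups, 0.00612% of all genes called) and none had an unadjusted p under 0.05. The member median of this difference was -0.06 on deposited TPM and 0.21 on rescaled values, where all genes had -0.16 and 0.06, so its sign depended on the scale. Because each time point has its own table, the effects of table and of time cannot be told apart.

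In some comparisons members differed along with the GC content of their transcripts. Uqcrb, whose transcripts have 42.2% GC, and Uqcrc1, with 56.8%, encode parts of the same complex in fixed proportion, and this pair was chosen after its values were seen. The ratio of Uqcrb to Uqcrc1 TPM was 1.83 to 3.06 in WT sham, 6.13 to 11.6 in WT 2 weeks TAC, 3.61 to 5.43 in VCP TG 2 weeks TAC, 2.19 to 5.94 in WT 5 weeks TAC and 1.77 to 2.19 in VCP TG 5 weeks TAC. In VCP TG sham it ran from 2.23 to 20.3, the last being replicate 4. Across the 81 members at 10 TPM or more, the log2 difference of WT TAC against WT sham had a Spearman rho of -0.42 with GC content, and 4473 other protein-coding genes at that level had -0.43. For VCP TG sham against WT sham rho was -0.50 in members and -0.38 in the other genes. For VCP TG against WT it was 0.29 and 0.13 at 2 weeks TAC, and 0.39 and 0.23 at 5 weeks TAC. For VCP TG 2 weeks TAC against VCP TG sham the 2 sets differed in sign, with 0.27 in members and -0.06 in other genes, and members there had a rho of 0.45 with transcript length. For the TAC response of VCP TG minus that of WT at 2 weeks, the interaction above, rho was 0.44 in members and 0.28 in other genes. For the genotype difference at 5 weeks minus that at 2 weeks rho was 0.10 in members and 0.17 in other genes. These rho values are across genes of the same libraries, which are not independent, and serve as a description.

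Split at the median of 52.5% GC, the 40 low-GC members had a median log2 difference of 0.34 in WT TAC against WT sham and the 41 high-GC members 0.09. In VCP TG against WT the split was small at 2 weeks TAC, with -0.24 and -0.19, and both sets lay below 0. At 5 weeks TAC it was -0.35 and -0.17. For the TAC response of VCP TG minus that of WT at 2 weeks, the low-GC members had -0.45 and the high-GC members -0.14. With a curve of log2 TPM on GC content taken off each library, the WT libraries alone gave 1 call in place of 3, and the 18 members lower without overlap in VCP TG at 2 weeks TAC became 19. This adjustment was added after the data were seen, and the share of all genes without overlap was not computed after it. The part of GC content in these differences was not tested.

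**Figure D5:**
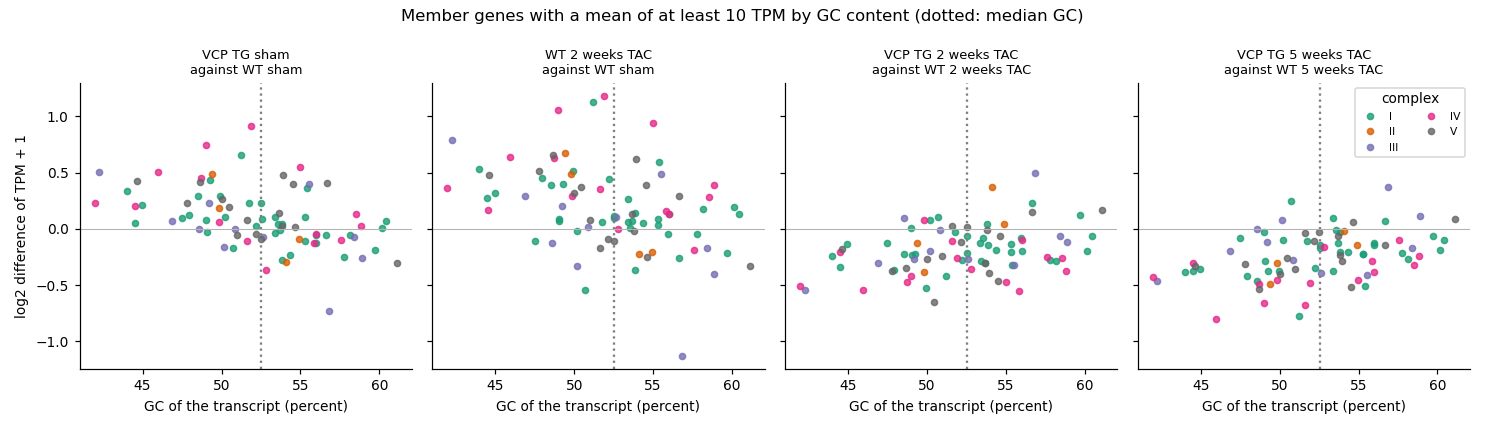
Log2 difference of TPM + 1 of the 81 members at 10 TPM or more against transcript GC content in percent, coloured by complex, in 4 comparisons; the dotted line is the GC median. Low-GC members lie higher in the WT TAC panel (median 0.34 against 0.09), and the split is smaller in VCP TG against WT at 2 weeks TAC (-0.24 against -0.19).

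Other genes of the pathway were read from lists, whose counts of lower calls in the WT libraries alone are to be read against the 6.31% of all genes called lower in that fit. Of 47 assembly factors, which insert cofactors and build the complexes, 0 were called in any comparison with all groups fitted together. In the WT libraries alone 0 were called higher and 1 lower with TAC, Ecsit (-0.84 ± 0.19), a complex I assembly factor. The list of 15 genes for cytochrome c and coenzyme Q synthesis also held Cyc1, a complex III subunit outside the rule and so absent from the members. Of these 15 genes 0 were called higher and 1 lower in the WT libraries alone, Coq8a (-0.91 ± 0.18). Of 15 transcriptional regulators 0 were called higher and 3 lower: the nuclear receptors Esrra (-1.02 ± 0.16) and Esrrb (-0.77 ± 0.17), and Perm1 (-0.86 ± 0.21), a muscle regulator that acts with them. Regulators thus had a median of -0.58 in a comparison where the subunit genes had 0.13 and all genes -0.13. In VCP TG against WT at 2 weeks TAC the regulators had a median of 0.28, near the 0.16 of all genes, where the subunit genes had -0.21, and 0 of 15 were called. Ppargc1a, the coactivator that drives mitochondrial biogenesis, had the smallest p there (1.07 ± 0.40, limma adjusted p = 0.307). None of the 13 mitochondrially encoded subunits was called in any of the 7 comparisons, and their median was 0.15 in WT TAC against WT sham and -0.16 in VCP TG against WT at 2 weeks TAC.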

How the data were processed

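RNA from mouse left ventricle was sequenced in 22 libraries of 6 groups. The labels' protocols name total RNA with the miRNeasy kit and a stranded mRNA library kit. The deposited values are TPM (transcripts per 1000000) per gene in 2 tables, 1 for sham and 2 weeks TAC and 1 for 5 weeks TAC. The submitters' processing notes list Trimmomatic 0.35, kallisto 0.43.1, STAR 2.5.4b, DESeq2 and GRCm38 without their roles. TPM keep no read number, so the depth is unknown. Every per-sample column was mapped to a sample (0 were not). Gene names, positions and GC came from GENCODE M21 (GRCm38).

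Differences were tested with limma 3.58.1 (R 4.3.3) on log2(TPM + 1), which understates changes of low genes, with a trended, robust variance, for genes at 1 TPM or more in at least 3 libraries, at a Benjamini-Hochberg adjusted p of 0.05 over all genes. The 2-week comparisons used all 4 groups of that table, with the groups compared alone as an alternative. The method was tested on simulated data. No label ties a library to an animal, and p-values therefore reflect library-to-library spread only, which may be technical. Deviations of libraries with the same replicate number were weakly correlated between the sham groups, where the 4 correlations ran from 0.107 to 0.256. In the other comparisons the correlations had both signs, from -0.227 to 0.131. A replicate block was therefore run as an alternative. The members, gene lists, and libraries to leave out were chosen with earlier results of these data known. Genes were named if they were isoforms of a subunit, called in a comparison, among the 2 smallest p of their complex or at an extreme of its level; genes named because their groups did not overlap, and those of the GC and ratio descriptions, were chosen after their values were seen.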

Additional observations from a re-analysis of the deposited data

Results flagged for a closer look

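In groups of 4 libraries, 8 of 198 sets of values (45 named members and the complex sums) had 1 library far from the other 3, and chance alone gives about 1 in 20. VCP TG sham replicate 3 accounted for 4. It was low for Atp5mpl (709 TPM, others 1427 to 1526), Ndufa12 (171 TPM, others 376 to 397) and Uqcrb (676 TPM, others 1611 to 1782), and high for Cox6b2, the testis isoform (7.53 TPM, others 1.22 to 1.65). Cox6b2 was listed at 0 in WT sham replicate 4, where the others stood at 2.09 to 2.23 TPM. The complex III sum was 5141 TPM in WT 2 weeks TAC replicate 2, above 4035 to 4197 in the others. WT 5 weeks TAC replicate 1 was high for Atp5g3 (452 TPM, others 222 to 252) and for Ndufa4l2 (9.10 TPM, others 5.84 to 6.28).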

How the results depend on the processing

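In the 7 comparisons with groups pooled, 0 members were called under every alternative run, with these exceptions for WT 2 weeks TAC against WT sham: 3 with the WT libraries alone, 3 without the 4 libraries rich in atrial transcripts, and 0 to 2 with 1 library left out (2 without VCP TG sham replicate 4). With a replicate block, the pooled comparisons also had 0 members called. The 3 calls in the WT libraries alone became 8 on rescaled TPM, 5 under quantile normalization, 5 with a replicate block, and 1 each with no filter on low values, without the libraries rich in atrial transcripts, without those of doubtful Vcp level, and adjusted for GC content, and 0 to 7 with 1 library left out. The shares of all genes called in these alternatives are not given here, so a general change in calls cannot be told from one in the members. The 4 members higher without overlap became 12 on rescaled TPM, 11 under quantile normalization and 4 to 19 with 1 library left out. The 18 lower in VCP TG at 2 weeks TAC became 58 on rescaled TPM, 31 without the atrial libraries, 29 without those of doubtful Vcp level and 18 to 37 with 1 left out. At 5 weeks the 1 lower became 10 on rescaled TPM, 7 under quantile normalization, 22 without the libraries of doubtful Vcp level and 1 to 19 with 1 left out. Counts without overlap can only stay or rise when libraries are left out, so the lower ends of these ranges were fixed in advance. No share of all genes was computed for the smaller sets. The GC adjustment and the alternatives for counts without overlap were added after seeing the data. Of 1510 alternatives for 60 named differences, 1495 kept direction and side of the threshold, 8 passed it and 7 reversed. For Sdhc these were 0.27 in the sham comparison without the atrial libraries (-0.56 to 0.047 with 1 left out), -0.034 in VCP TG TAC against VCP TG sham without the atrial libraries and -0.021 in VCP TG against WT at 2 weeks TAC on rescaled TPM. For Sdha in VCP TG TAC against VCP TG sham it was 0.081 without the libraries of doubtful Vcp level (-0.25 to 0.081 with 1 left out). The cause was not tested. Depth is unknown, so counting error could not be given.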

Other observations

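Subunits of the same complex IV dimer also differed in proportion between libraries. The ratio of Cox5a to Cox5b, the matrix-side subunits of complex IV, was 0.617 to 1.54 in WT sham, 0.909 to 2.30 in VCP TG sham, 1.84 to 1.96 in WT 2 weeks TAC and 1.46 to 1.59 in VCP TG 2 weeks TAC. After 5 weeks the ratio was 0.479 to 1.56 in WT and 0.581 to 0.731 in VCP TG. The 4 WT 2 weeks TAC libraries lay close together and above all WT sham and VCP TG 2 weeks TAC libraries. Relative to the mitochondrially encoded subunits of the same complex, nuclear complex IV stood at 7.18 to 11.6 TPM per 100 with sham surgery and 10.96 to 14.6 after TAC in WT. The other complexes had lower means after TAC, with overlapping libraries: complex I 6.09 ± 2.35 and 5.67 ± 0.979, complex III 11.9 ± 3.44 and 11.7 ± 1.73, and complex V 6.29 ± 2.51 and 5.24 ± 0.521 (SD, n = 4 each). These pairs were chosen after their values were seen, and were not tested.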
